A study of Mus musculus with 14 samples.

Results

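The comparison set 2 libraries of the group Citraconate_50K against 2 of the group ZR_dmCitra, 4 of the 14 libraries of an ATAC-seq series on mouse neural stem cells. They were chosen by their titles, and both groups carry the same cell line label, ZFTA-RELA mNSC, and the same treatment label, 10 mM citraconate. Citraconate_50K belongs to a second library series, prepared under other library numbers together with the DMSO_50K libraries, and ZR_dmCitra to the first series, together with untreated fusion cells (ZR) and empty-vector cells (EV). The title abbreviation dmCitra is not explained by the labels. The protocol names 24 h and 48 h of citraconate without tying either to a library, so exposure time may differ between the groups. Series, list quality, title and possible exposure time all coincide with the groups, and their parts in any difference below cannot be told apart. The libraries used for reference were DMSO_50K, labelled empty-vector cells with DMSO vehicle, ZR, labelled fusion cells with PBS vehicle, and EV, labelled empty-vector cells with DMSO vehicle in replicate 1 and PBS vehicle in replicate 2, each with 2 libraries. In a few places 2 more first-series groups are given: ZR_DMSO, fusion cells with DMSO, and ZR_GSK343, fusion cells with 10 uM of the EZH2 inhibitor GSK343. The protocol gives 96 h for GSK343. The second-series labels could not be checked, since the peak lists hold no measure of the fusion itself. The values of both its groups leave them in doubt: DMSO_50K, labelled empty vector, had peaks at most regions gained in ZR over EV, while Citraconate_50K, labelled fusion, had fewer of those and, like DMSO_50K, stood near EV in the share of its peaks on chromosome 4. Genotype in the second series is therefore uncertain for every value below. Whether replicates were grown apart is not in the labels. Every p below concerns these libraries only, and takes its smallest possible value whenever the groups do not overlap, however far apart they stand.

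ATAC-seq uses the Tn5 transposase to cut and tag DNA that is not packed by nucleosomes, so that a peak marks open chromatin at a promoter or an enhancer. ZFTA-RELA, a fusion of the zinc finger protein ZFTA with the NF-kB subunit RELA, is a known driver of supratentorial ependymoma. Citraconate is an isomer of itaconate and an inhibitor of ACOD1, the enzyme that makes itaconate from the citric acid cycle intermediate cis-aconitate. Neural stem cells are known for expression of SOX2 and nestin and for Notch signalling through HES factors.

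The deposited lists held 31864 and 29574 peaks in Citraconate_50K replicates 1 and 2, against 45920 and 44196 in ZR_dmCitra. On chromosomes 1 to 19 the Citraconate_50K lists were 0.683 times as long, with 29660 ± 1524 peaks on average in Citraconate_50K and 43400 ± 1142 in ZR_dmCitra (SD, n = 2 each, two-sided exact permutation p = 0.33). A design of 2 against 2 libraries cannot give a two-sided exact p below 0.33, so no single value here can pass 0.05. Read depth is unknown from peak lists. Each list was therefore reduced to its best 28580 peaks on chromosomes 1 to 19, the length of the shortest, ranked by the authors' −log10 q with rank 1 as the strongest. The last peak kept had a −log10 q of 3.93 and 3.43 in Citraconate_50K and of 10.6 and 9.67 in ZR_dmCitra, so that the Citraconate_50K lists reached weaker peaks. The median peak width was 500 and 453 bp in Citraconate_50K, against 650 and 587 bp in ZR_dmCitra (exact permutation p = 0.33). This direction turned with the lists as deposited, where the difference was 15.0 bp, and at a −log10 q of at least 5, where it was 69.0 bp. The cut to equal length removed more peaks from the ZR_dmCitra lists. Absence from an equal-length list is therefore not absence of a peak, and the deposited lists are given beside the calls.

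Over the 4 lists, overlapping peaks merged into 42637 regions, and 16568 of these had a peak in all 4 libraries. A peak in both Citraconate_50K lists and in neither ZR_dmCitra list was found at 2790 regions, which is 6.54% of all regions, and the opposite pattern at 4825 regions, or 11.3%. These are called Citraconate_50K-only and ZR_dmCitra-only regions at equal list length. The replicates of a group shared 0.596 of their covered bases (Jaccard index) in Citraconate_50K and 0.687 in ZR_dmCitra. Between the groups the index was 0.501 to 0.525, below both. Citraconate_50K had a mean index of 0.440 with DMSO_50K of its own series and of 0.499 with ZR, while ZR_dmCitra had 0.631 with ZR.

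The ZR_dmCitra-only regions were almost all distal. Of these, 4.06% were at gene ends, that is no further than 1 kb from the start or end of a protein-coding gene, 44.3% were further inside genes and 51.7% between genes. The Citraconate_50K-only regions lay at gene ends in 23.3% of cases, inside genes in 40.7% and between genes in 35.95%, while regions of all 4 libraries lay at gene ends in 47.1%. With the 12000 best peaks of each list, 58.8% of 1868 Citraconate_50K-only and 7.58% of 2071 ZR_dmCitra-only regions lay there. Gene-end peaks made up 34.8% and 35.4% of the Citraconate_50K lists, against 30.3% and 30.8% of the ZR_dmCitra lists. The groups did not overlap, and the difference was 4.63 percentage points ± 0.562 (SD of the difference, n = 2 each, exact permutation p = 0.33). No peak in either deposited Citraconate_50K list overlapped 97.7% of the ZR_dmCitra-only regions. Of the Citraconate_50K-only regions, 37.8% had no peak in either deposited ZR_dmCitra list. Most of them were thus peaks of lower rank in ZR_dmCitra rather than peaks missing there. These shares cannot be set against each other. The deposited Citraconate_50K lists held 30735 and 28580 peaks on chromosomes 1 to 19, so the cut to 28580 left few or no lower-ranked peaks to find. The ZR_dmCitra lists held 44206 and 42591. The median of the poorer rank of the 2 libraries was 22140 in Citraconate_50K-only regions and 21320 in ZR_dmCitra-only regions, against 10030 in Citraconate_50K and 10250 in ZR_dmCitra for the regions of all 4 libraries. Both kinds of call thus came mostly from the weaker part of the lists.

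The regions were then looked up in libraries that took no part in the calls, at the same list length. ZR_dmCitra-only regions had a peak in 69.8% and 69.5% of cases in the untreated fusion libraries ZR, in 12.7% and 14.0% in EV, and in 36.7% and 38.2% in DMSO_50K. Citraconate_50K-only regions had a peak in 19.6% and 19.9% of cases in ZR, in 30.6% and 31.8% in EV, and in 37.9% and 39.0% in DMSO_50K. Of all 42637 regions, 59.9% and 59.75% had a peak in ZR, 38.1% and 39.0% in EV and 52.7% and 53.6% in DMSO_50K. DMSO_50K held the regions of both directions about equally often, below its share of all regions. ZR held ZR_dmCitra-only regions above its share of all regions and Citraconate_50K-only regions below it. EV held both below its share, though Citraconate_50K-only regions more often than ZR_dmCitra-only ones. A peak in both ZR and in neither EV library was present at 49.9% of ZR_dmCitra-only regions, and the opposite pattern at 1.18%. For Citraconate_50K-only regions these shares were 5.59% and 14.9%, and for all regions 22.8% and 3.96%. None of the 6 ZR, EV and DMSO_50K libraries had a peak at 942 Citraconate_50K-only regions (33.8%), against 832 ZR_dmCitra-only regions (17.2%) and 22.8% of all regions.

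**Figure D1:**
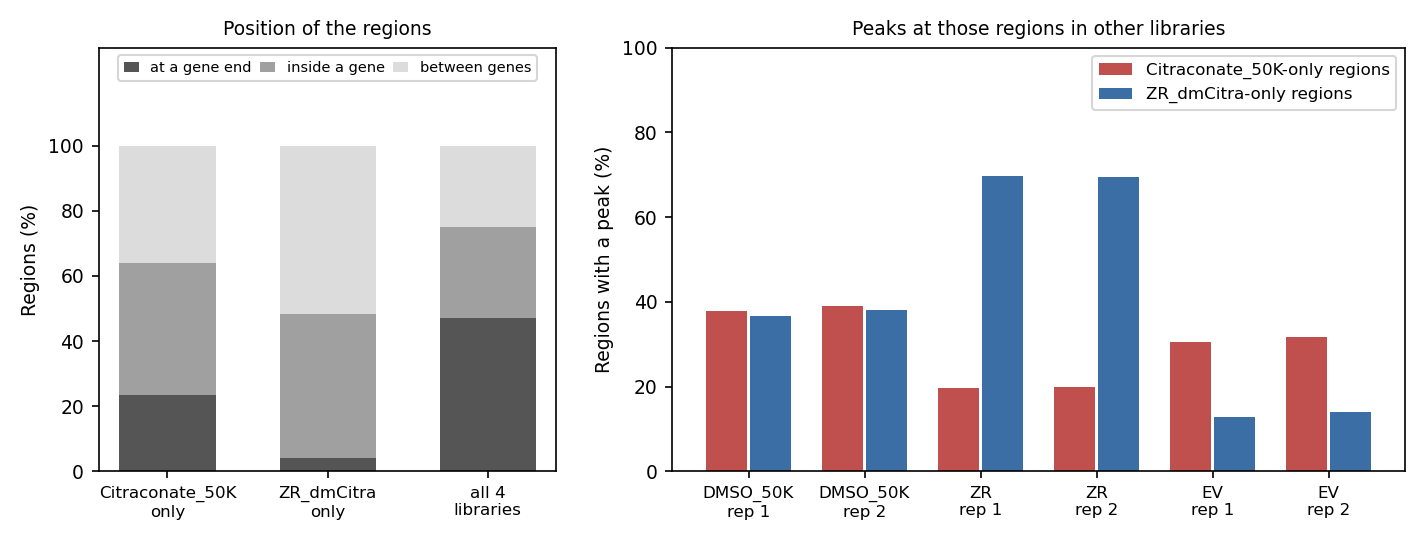
Left, position of Citraconate_50K-only regions (2790), ZR_dmCitra-only regions (4825) and regions of all 4 libraries (16568) relative to protein-coding genes, as percent of regions. Right, percent of the 2790 and 4825 regions with a peak in each DMSO_50K, ZR and EV library at equal list length, with the ZR bars near 70% for ZR_dmCitra-only and near 20% for Citraconate_50K-only regions.

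Whether both citraconate groups carried the open chromatin of fusion cells was checked with regions fixed in ZR and EV, outside the compared libraries. Of 12974 fusion-gained regions, with a peak in both ZR and neither EV list at 34015 peaks each, 45.4% and 44.4% had a peak in Citraconate_50K, against 72.4% and 71.1% in ZR_dmCitra. The difference was -26.8 percentage points ± 1.18 (SD of the difference, n = 2 each, exact permutation p = 0.33). The DMSO_50K libraries, although labelled empty vector, had a peak at 59.1% and 60.2% of these regions, more than the Citraconate_50K libraries labelled fusion. Of 11423 fusion-lost regions, found in both EV and neither ZR list, 7.83% had a peak in each Citraconate_50K library, against 2.36% and 2.31% in ZR_dmCitra and 8.09% and 8.47% in DMSO_50K. At the 14219 regions that ZR and EV have in common, 88.0% and 88.3% were covered by a peak in Citraconate_50K, against 89.7% and 90.2% in ZR_dmCitra. The difference at these common regions was -1.80 points ± 0.436 (SD of the difference, n = 2 each, exact permutation p = 0.33), and turned to 9.27 points with the 12000 best peaks. ZR and ZR_dmCitra come from the same library series, and series and treatment group cannot be told apart here.

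**Figure D2:**
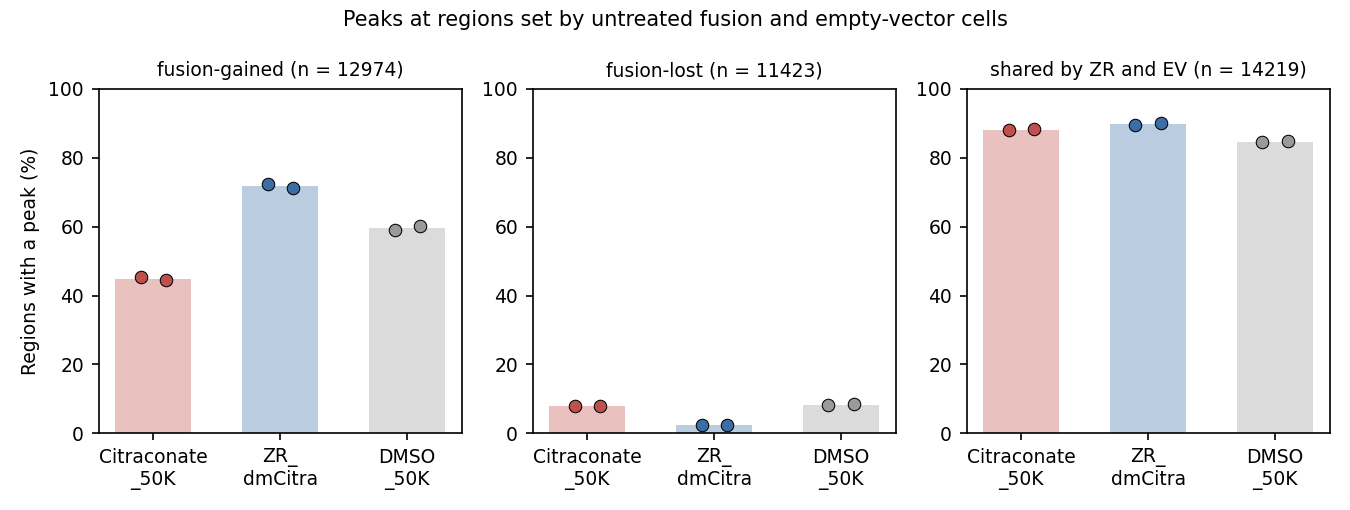
Percent of fusion-gained (12974), fusion-lost (11423) and shared (14219) regions, set by ZR and EV libraries, with a peak in each library at 28580 peaks; points are libraries and bars the mean of 2. Citraconate_50K stands at 45.4% and 44.4% of fusion-gained regions, ZR_dmCitra at 72.4% and 71.1%, and DMSO_50K at 59.1% and 60.2%.

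Among the fusion-gained regions, 2684 (20.7%) had a peak in both ZR_dmCitra and neither Citraconate_50K list, 246 (1.90%) the reverse, and 4031 (31.1%) a peak in all 4. The difference was seen in each class of position. At gene ends 55.2% and 56.9% of fusion-gained regions had a peak in Citraconate_50K, against 72.2% and 73.1% in ZR_dmCitra. Inside genes the shares were 45.8% and 44.7% in Citraconate_50K, against 71.7% and 69.9% in ZR_dmCitra, and between genes 44.1% and 43.0% in Citraconate_50K, against 73.1% and 72.1% in ZR_dmCitra. The fusion-lost regions at gene ends had a peak in 29.3% and 29.5% of cases in Citraconate_50K, against 5.34% and 7.30% in ZR_dmCitra and 10.3% and 10.5% in DMSO_50K. Away from gene ends fusion-lost regions had one in 5.72% to 5.91% of cases in Citraconate_50K and in 1.69% to 2.46% in ZR_dmCitra. The sign of the fusion-lost difference turned when the lists were used as deposited, at -0.801 points.

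Chromosomes 4, 9 and 11 ran against the genome. On every other autosome ZR_dmCitra-only regions outnumbered Citraconate_50K-only regions. On chromosome 4, 17.5% of regions were Citraconate_50K-only and 2.53% ZR_dmCitra-only, on chromosome 11 13.2% and 4.64%, and on chromosome 9 9.89% and 4.66%. At the other extreme stood chromosome 1, with 3.05% Citraconate_50K-only and 18.2% ZR_dmCitra-only. Chromosomes 4, 9 and 11 held 15.4% of all regions, but 32.2% of the Citraconate_50K-only and 5.39% of the ZR_dmCitra-only ones. They were singled out after their values were seen. With the lists as deposited the balance turned on chromosomes 9 and 11, to -7.24 and -4.77 points (Citraconate_50K-only minus ZR_dmCitra-only). How the calls lie along these chromosomes was not tested.

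**Figure D3:**
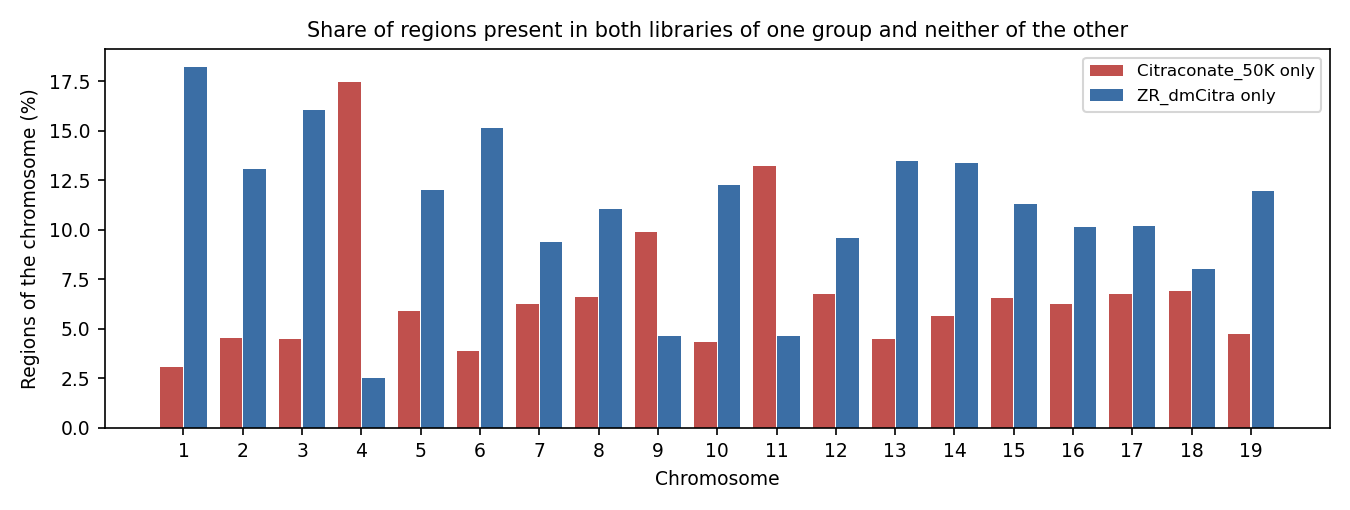
Percent of the merged regions of each chromosome that were Citraconate_50K-only (red) or ZR_dmCitra-only (blue). Chromosomes 4 (17.5% against 2.53%), 9 (9.89% against 4.66%) and 11 (13.2% against 4.64%) are the ones with the red bar higher.

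The same chromosomes stood apart in how strongly their gene-end regions ranked. For gene-end regions with a peak in all 4 lists, the rank was turned into a percentile, in which 100 is the strongest peak. On chromosome 11 the median percentile of 528 such regions was 80.0 and 80.5 in Citraconate_50K, against 49.7 and 53.7 in ZR_dmCitra. On chromosome 4 (424 regions) it was 86.2 and 85.4 in Citraconate_50K, against 59.4 and 63.9 in ZR_dmCitra, and on chromosome 9 (401 regions) 80.3 and 81.9 in Citraconate_50K, against 65.3 and 67.8 in ZR_dmCitra. Over all 7809 regions of this kind it was 81.6 and 82.2 in Citraconate_50K, against 74.8 and 76.1 in ZR_dmCitra. Citraconate_50K medians stayed between 78.0 and 86.2 on all 19 chromosomes, and the low values belonged to ZR_dmCitra.

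**Figure D4:**
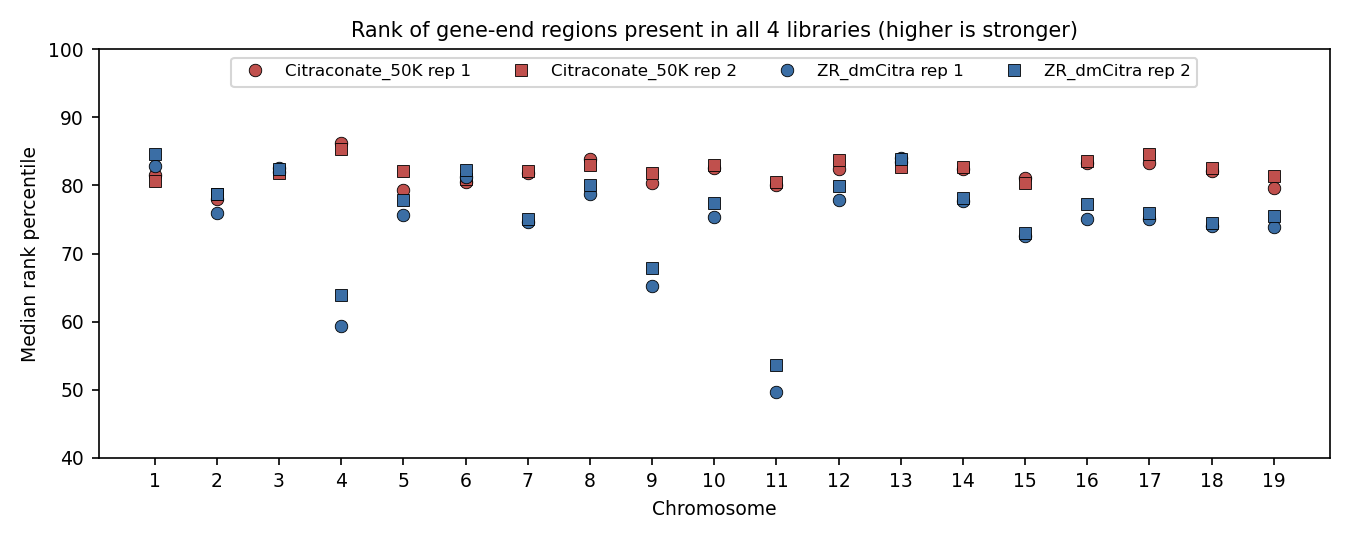
Median rank percentile (100 is the strongest peak of the equal-length list) of gene-end regions with a peak in all 4 lists, per chromosome and library; red, Citraconate_50K, blue, ZR_dmCitra. The blue points fall to between 49.7 and 67.8 on chromosomes 4, 9 and 11, where the red points lie between 80.0 and 86.2.

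Libraries outside the comparison were read the same way, at gene-end regions with a peak in all 10 lists. On chromosome 4 (376 regions) the median percentile was 62.2 and 63.3 in ZR, 85.1 and 85.0 in EV and 80.8 and 80.0 in DMSO_50K, beside 87.9 and 87.8 in Citraconate_50K and 64.1 and 66.9 in ZR_dmCitra. On chromosome 11 (439 regions) it was 60.0 and 61.1 in ZR, 74.7 and 74.9 in EV and 68.4 and 66.1 in DMSO_50K, beside 83.6 and 83.8 in Citraconate_50K and 58.4 and 61.3 in ZR_dmCitra. ZR_dmCitra thus lay with ZR on these chromosomes, and Citraconate_50K lay above ZR, EV and DMSO_50K. On the remaining chromosomes together (5529 regions) the median was 84.6 and 85.1 in Citraconate_50K and 81.9 and 83.0 in ZR_dmCitra. There it was 82.2 and 82.4 in ZR, 83.9 and 84.35 in EV and 74.7 and 73.4 in DMSO_50K. Citraconate_50K thus stood above DMSO_50K there too, and this lead was not particular to chromosomes 4 and 11. Chromosome 4 took 5.99% and 6.26% of the peaks of the Citraconate_50K lists, against 3.61% and 3.63% in ZR_dmCitra, with 3.59% and 3.46% in ZR, 6.20% and 6.28% in EV and 6.07% and 5.83% in DMSO_50K. By this measure Citraconate_50K, labelled fusion, stood near EV, and ZR_dmCitra, with the same label, near ZR. Whether DNA copy number differed between the cells was not tested. Without chromosomes 4, 9 and 11 fusion-gained regions still had a peak in 44.4% and 43.5% of cases in Citraconate_50K, against 72.9% and 71.4% in ZR_dmCitra.

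At the level of genes, 11045 protein-coding genes on chromosomes 1 to 19 had a peak within 1 kb of either end in at least 1 of the 4 lists, and 8726 (79.0%) had one in all 4. A gene-end peak was Citraconate_50K-only at 572 genes, which is 5.18% of those with a peak, and ZR_dmCitra-only at 143, or 1.29%. Of the 572 genes, 282 (49.3%) lay on chromosomes 4, 9 and 11, against 7 of the 143 (4.90%), so that the gene calls in favour of Citraconate_50K were to a large part those of 3 chromosomes. Of the 8726 genes with a peak in all 4 lists, 1531 (17.55%) lay there. EV libraries had a gene-end peak at 65.2% and 66.3% of the 572 genes, ZR libraries at 25.5% and 27.4% and DMSO_50K libraries at 40.6% and 37.2%. For the 143 genes the shares were 34.3% and 37.1% in EV, 62.9% and 69.9% in ZR and 28.7% and 26.6% in DMSO_50K. For the 8726 genes they were 96.9% and 97.0% in EV, 97.7% and 97.7% in ZR and 93.9% and 93.8% in DMSO_50K. Neither deposited ZR_dmCitra list held a gene-end peak at 127 of the 572 genes (22.2%), and neither deposited Citraconate_50K list at 136 of the 143 (95.1%). These shares too come from deposited lists of unequal length and cannot be set against each other. Used as deposited, the lists turned the balance, with 135 genes Citraconate_50K-only and 336 ZR_dmCitra-only.

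Of 25 itaconate and citric acid cycle genes, 22 lay among the genes with a peak, 21 of them (95.5%, against 79.0% of all genes) had one in all 4 lists, and Acod1 was ZR_dmCitra-only (4.55%, against 1.29%). Acod1, which encodes the itaconate-producing enzyme that citraconate inhibits, had its peak at the annotated start of the gene, on chromosome 14 from 103046857 to 103047779 (mm10) in ZR_dmCitra replicate 1. It had no gene-end peak in either deposited Citraconate_50K list, and ranked 16020 and 14028 of 28580 in ZR_dmCitra, with an authors' fold enrichment of 13.0 and 13.8. DMSO_50K libraries had a gene-end peak of Acod1 at ranks 2736 and 2627 and ZR libraries at 13682 and 20999, while neither EV list had one at this length. A gene-end peak of Acod1 was therefore present in every list of ZR_dmCitra, DMSO_50K and ZR and missing in both of Citraconate_50K. Here and for the genes below, the position of the gene-end peak in DMSO_50K, ZR and EV was not compared.

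NF-kB target genes differed in both directions. Of 20 listed, 13 had a peak, 2 were Citraconate_50K-only (15.4%, against 5.18% of all genes) and 1 ZR_dmCitra-only (7.69%, against 1.29%). Cxcl1, a neutrophil-attracting chemokine gene, ranked 10269 and 11332 in ZR_dmCitra, at chromosome 5 from 90890817 to 90891611 in replicate 1 with an authors' fold of 18.2, and had no peak in either deposited Citraconate_50K list. Both ZR libraries had a gene-end peak of Cxcl1, at 11719 and 13005, and neither EV nor DMSO_50K did. Ccl2, a monocyte-attracting chemokine gene, ranked 15251 and 8251 in Citraconate_50K and was in the deposited list of ZR_dmCitra replicate 1 only. Il6, an inflammatory cytokine gene, ranked 17687 and 23176 in Citraconate_50K and was present, with a lower rank, in both deposited ZR_dmCitra lists. Ccl2 lies on chromosome 11. The 6 members with a peak in all 4 lists had a median percentile difference, Citraconate_50K minus ZR_dmCitra, of 4.29, close to the 4.36 of all 8726 genes. Rela itself was open at its gene ends in all 4 lists, at ranks 13111 and 7377 in Citraconate_50K and 13314 and 14150 in ZR_dmCitra, though the peak of Citraconate_50K replicate 1 lay at the other end of the gene from those of the other 3 libraries.

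The fusion signature list had 13 of its 20 genes with a peak, of which 1 was Citraconate_50K-only (7.69%, near the 5.18% of all genes). That gene was Ccnd1, the gene of cyclin D1, which drives the G1 phase of the cell cycle. Its peak spanned chromosome 7, 144939170 to 144940621 in Citraconate_50K replicate 1 and ranked 11558 and 11507, with an authors' fold of 9.88 and 10.5. All DMSO_50K, ZR and EV libraries had a gene-end peak of Ccnd1 at equal length, at ranks from 7735 to 19872. Both deposited ZR_dmCitra lists held one of lower rank. The call lapsed with the lists as deposited and with a window of 2 kb. L1cam, another marker of the tumours with this fusion, lies outside chromosomes 1 to 19 and was not compared. Ccnd1 was also the 1 call among 10 genes with a peak in a list of cell cycle inhibitors and cyclins (10.0%). Ezh2, the histone H3 lysine 27 methyltransferase gene, had its peak in all 4 lists, at ranks 1945 and 2351 in Citraconate_50K and 3436 and 2364 in ZR_dmCitra, and none of 15 Polycomb genes with a peak was called in either direction, where 5.18% and 1.29% of all genes were.

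Neural stem genes had gene-end peaks at 13 and 13 of 25 in Citraconate_50K, against 10 and 10 in ZR_dmCitra, with 11 and 11 in DMSO_50K, 10 and 10 in ZR and 21 and 21 in EV. Over all genes the number moved the same way, with 10249 and 10337 in Citraconate_50K, against 9462 and 9580 in ZR_dmCitra. Of 15 neural stem genes with a peak, 8 had it in all 4 lists, 2 were Citraconate_50K-only (13.3%, against 5.18% of all genes) and 1 ZR_dmCitra-only (6.67%, against 1.29%). Sox2 had no gene-end peak in any of the 4 deposited lists and none in ZR or DMSO_50K at equal length, though it ranked 1583 and 2748 in EV. Among the 4 lists Nes, the nestin gene, had one only in Citraconate_50K replicate 1, at rank 26690. It had none in ZR or DMSO_50K and ranked 23012 and 27925 in EV. Hes5, a Notch effector gene, ranked 17663 and 14441 in Citraconate_50K, and Id3, which encodes an inhibitor of helix-loop-helix factors, 16057 and 15766. Both were Citraconate_50K-only at equal length, both had a lower-ranked peak in both deposited ZR_dmCitra lists, and both lie on chromosome 4. Fabp7, a fatty acid binding protein gene of radial glia, was ZR_dmCitra-only, with ranks 17534 and 14610 and no peak in a deposited Citraconate_50K list. Fabp7 stood near the top of the EV lists, at ranks 1016 and 1087.

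Markers of other cell types were read against all genes, of which 11045 of 20665 had a gene-end peak, 5.18% of these Citraconate_50K-only and 1.29% ZR_dmCitra-only. With lists this short a single call is a large share, and no list was tested. Of 18 neuronal genes 8 had a peak, with Tubb3 (neuronal tubulin) and Nrxn3 (a presynaptic neurexin) Citraconate_50K-only and Snap25 (a synaptic vesicle fusion protein) ZR_dmCitra-only. Nrxn3 ranked 10208 and 7255 in Citraconate_50K and had no peak in a deposited ZR_dmCitra list. DMSO_50K libraries had a gene-end peak of Nrxn3 at ranks 4006 and 4713. The gene was called under all 13 alternatives tried, but several of these could hardly change a call. Ranking by fold gave the same lists, the replicate block is the main rule again, and omission of a library asks for a peak in fewer lists. Of 10 astrocyte genes 5 had a peak, and Sparcl1 was ZR_dmCitra-only. Of 15 motile cilia genes 7 had one, and Rfx4, a ciliary transcription factor gene, and Rsph1, a radial spoke protein gene, were Citraconate_50K-only. Gene-end peaks of motile cilia genes numbered 7 and 7 in Citraconate_50K, against 4 and 5 in ZR_dmCitra, with 7 in each DMSO_50K and EV library and 5 in each ZR library, beside the higher number over all genes in Citraconate_50K given above.

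The shares of all genes called, 5.18% and 1.29%, apply to the next lists too. Of 11 oligodendrocyte genes 3 had a peak, and Cnp, a myelin enzyme gene on chromosome 11, was Citraconate_50K-only. Of 10 microglial genes 5 had one, and Trem2, a lipid receptor gene, was ZR_dmCitra-only. Microglial genes with a gene-end peak numbered 2 and 4 in Citraconate_50K, against 4 and 4 in ZR_dmCitra. Of 16 fibroblast and mesenchymal genes 4 had a peak, and Col5a1, a collagen chain gene, was Citraconate_50K-only. Their number was 4 and 3 in Citraconate_50K, against 1 and 2 in ZR_dmCitra, again in the direction of all genes. Of 10 endothelial genes 2 had a peak, and Cdh5, the gene of vascular cadherin, was Citraconate_50K-only, at the unequal ranks 4616 and 26061. Whether admixed cells took part in these calls was not tested.

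Receptors and developmental factors gave single calls. Among 15 growth factor receptor genes with a peak the ephrin receptor genes Epha3 and Ephb2 were Citraconate_50K-only (13.3%, against 5.18% of all genes), and neither had a peak in a deposited ZR_dmCitra list. Ephb2, on chromosome 4, ranked 9148 and 12262, and Epha3, with a peak in EV but in no ZR or DMSO_50K list, ranked 23437 and 28223 and so lay at the bottom of the list. Among 19 developmental factor genes with a peak Zeb1 was Citraconate_50K-only and Tbx15 ZR_dmCitra-only (5.26% each, against 5.18% and 1.29% of all genes). Among 16 AP-1 and stress genes 15 had a peak in all 4 lists (93.8%, against 79.0% of all genes) and Egr3, an immediate early gene, was ZR_dmCitra-only (6.25%, against 1.29%), at ranks 28524 and 21964. No call was made among 19 NRF2 target, 16 interferon response, 3 Hox and 18 housekeeping genes with a peak. For Tubb3, Zeb1 and Rfx4 the peaks of the 2 Citraconate_50K libraries did not overlap each other, so these calls are of the gene and not of a region.

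**Figure D5:**
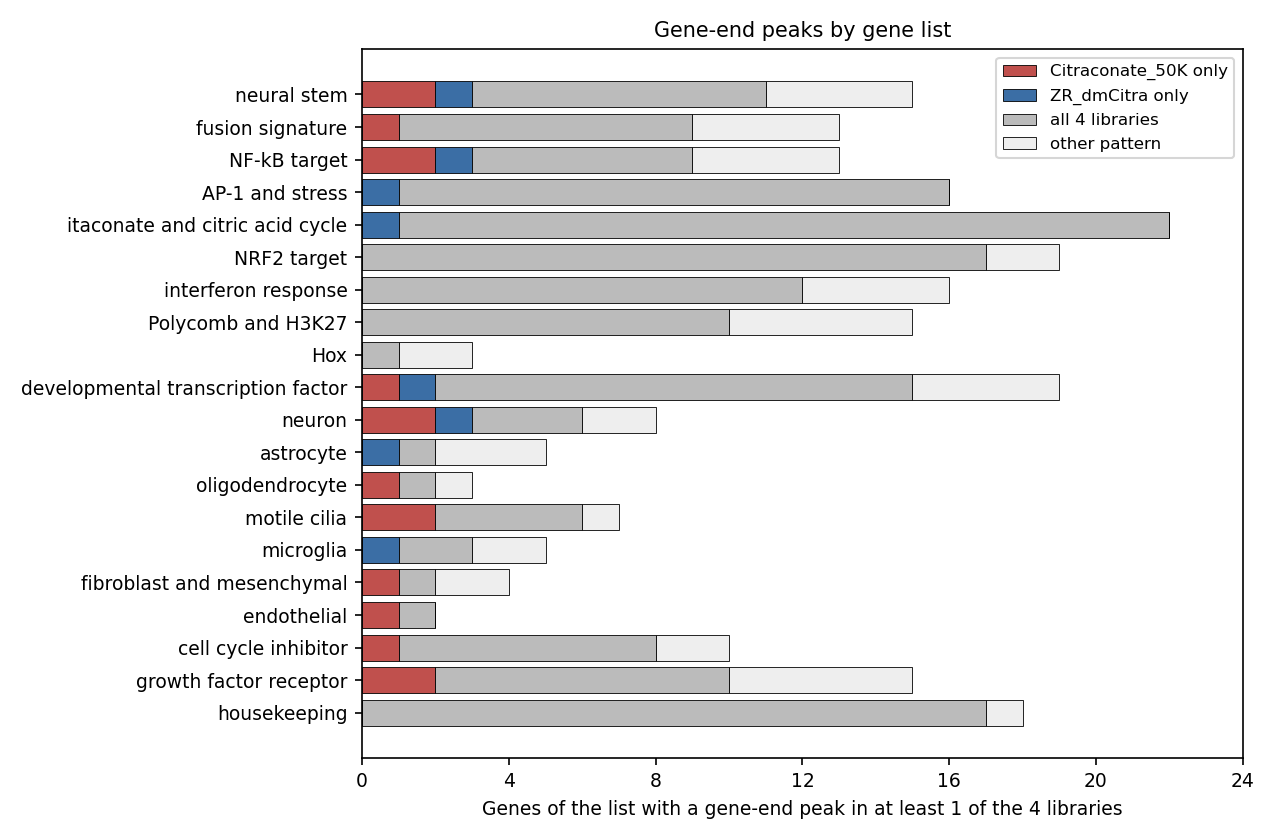
Number of genes of each list with a gene-end peak in at least 1 of the 4 equal-length lists, split into Citraconate_50K-only, ZR_dmCitra-only, all 4 libraries and other patterns. Citraconate_50K-only and ZR_dmCitra-only genes number at most 2 and 1 in any list.

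Promoter sequences of RefSeq (GRCm38.p6, the coordinates of mm10), 250 bases before to 50 after a start site, are shown for 3 genes in each direction. They are the best-ranked called genes among those named from the gene lists and the strongest regions whose window is in the sequence table and was itself called in that direction; genes named only for their number of regions, such as Gpc5, were not taken. They are printed so that their base composition can be compared. They were searched on both strands for an AP-1 site (TGANTCA), an NRF2 site (TGACNNNGC) and the NF-kB consensus, and matches are in capitals. The first 3 promoters belong to Citraconate_50K-only genes: Col5a1 (chr2:27886175-27886474, plus strand), Ephb2 (chr4:136835963-136836262, minus strand) and Id3 (chr4:136143572-136143871, plus strand). The others belong to ZR_dmCitra-only genes: Cxcl1 (chr5:90890995-90891294, plus strand), Acod1 (chr14:103046762-103047061, plus strand) and Fabp7 (chr10:57784673-57784972, plus strand).
Col5a1: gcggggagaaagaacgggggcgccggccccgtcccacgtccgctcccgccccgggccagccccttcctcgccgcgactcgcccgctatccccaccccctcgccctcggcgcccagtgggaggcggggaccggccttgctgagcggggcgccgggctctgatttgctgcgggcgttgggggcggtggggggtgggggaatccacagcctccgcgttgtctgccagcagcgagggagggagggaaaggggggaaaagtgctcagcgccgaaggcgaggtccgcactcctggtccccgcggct
Ephb2: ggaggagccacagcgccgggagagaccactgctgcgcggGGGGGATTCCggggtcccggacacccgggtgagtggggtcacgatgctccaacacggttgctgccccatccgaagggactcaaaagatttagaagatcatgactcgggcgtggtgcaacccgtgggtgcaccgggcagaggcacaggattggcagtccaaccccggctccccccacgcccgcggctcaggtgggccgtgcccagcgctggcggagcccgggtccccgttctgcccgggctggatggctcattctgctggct
Id3: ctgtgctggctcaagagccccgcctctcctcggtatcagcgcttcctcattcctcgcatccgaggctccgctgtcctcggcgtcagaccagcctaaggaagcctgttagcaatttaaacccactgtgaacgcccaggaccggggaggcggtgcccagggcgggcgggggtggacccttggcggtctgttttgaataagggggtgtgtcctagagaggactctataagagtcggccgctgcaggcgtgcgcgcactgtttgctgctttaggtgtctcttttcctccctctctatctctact
Cxcl1: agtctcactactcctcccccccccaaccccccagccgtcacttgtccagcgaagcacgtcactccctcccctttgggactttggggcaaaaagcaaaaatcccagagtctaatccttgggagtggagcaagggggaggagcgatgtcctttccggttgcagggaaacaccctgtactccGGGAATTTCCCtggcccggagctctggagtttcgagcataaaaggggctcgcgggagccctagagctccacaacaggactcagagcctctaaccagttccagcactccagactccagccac
Acod1: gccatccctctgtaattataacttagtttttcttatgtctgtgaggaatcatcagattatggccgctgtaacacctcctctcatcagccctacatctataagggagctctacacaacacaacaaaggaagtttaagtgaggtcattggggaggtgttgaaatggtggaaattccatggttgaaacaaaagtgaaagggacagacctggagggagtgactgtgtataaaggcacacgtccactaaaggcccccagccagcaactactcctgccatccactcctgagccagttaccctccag
Fabp7: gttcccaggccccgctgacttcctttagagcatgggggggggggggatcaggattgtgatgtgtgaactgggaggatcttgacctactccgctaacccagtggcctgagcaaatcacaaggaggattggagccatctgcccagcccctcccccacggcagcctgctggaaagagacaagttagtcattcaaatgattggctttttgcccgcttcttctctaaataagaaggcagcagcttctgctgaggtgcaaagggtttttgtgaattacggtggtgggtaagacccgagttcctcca

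The Col5a1, Ephb2 and Id3 windows held 34, 24 and 19 CpG dinucleotides and 75%, 68.7% and 60.0% G and C, while the Cxcl1, Acod1 and Fabp7 windows held 10, 2 and 6 CpG and 58.7%, 47.0% and 54.0% G and C. Acod1 had the lowest ratio of observed to expected CpG of these, at 0.121. The capitals in Cxcl1 mark overlapping NF-kB matches on both strands and those in Ephb2 a single NF-kB match, and the other 4 windows held none of the motifs. Over 20085 promoters of 16457 genes found in the RefSeq table, 475 were Citraconate_50K-only with a median observed to expected CpG ratio of 0.734 (quartiles 0.538 and 0.895) and 122 ZR_dmCitra-only with 0.546 (0.319 and 0.762). Promoters with a peak in all 4 lists had 0.823, and those with a peak in no citraconate list 0.248. The AP-1 letters were found in 6.11% of Citraconate_50K-only promoters, 14.8% of ZR_dmCitra-only promoters (18 of 122) and 7.05% of all 20085 promoters. The NF-kB consensus was found in 7.79%, 5.74% and 4.93% in the same order, and the NRF2 letters in 12.6%, 14.8% and 13.1%. Promoters with a peak in all 4 lists held the AP-1 letters in 4.03% of cases, and those with a peak in no citraconate list in 9.69%. The AP-1 share thus also differed between sets of unlike CpG ratio. These shares are descriptions, and no test was made of them.

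The strongest regions that the other group's deposited lists lacked altogether differed in width. The called regions as a whole did not stand apart in it, with a median of 496 bp and 1.54% under 200 bp in Citraconate_50K-only regions and 480 bp and 1.70% in ZR_dmCitra-only regions. The filters behind the best 10 were unequal. On chromosomes 1 to 19 the Citraconate_50K-only ones had to be missing from deposited lists of 44206 and 42591 peaks. The ZR_dmCitra-only ones had to be missing from lists of 30735 and 28580. Their widths and their peaks in other libraries are therefore not like for like. For Citraconate_50K 9 of the best 10 were narrower than 200 bp, with a median of 170.5 bp, while for ZR_dmCitra the best 10 spanned 536 to 1180 bp with a median of 871.5 bp. All 10 of the ZR_dmCitra-only regions had a peak in both ZR libraries. Of the 10 Citraconate_50K-only ones none had it in both. A peak in at least 1 ZR_DMSO library, fusion cells with DMSO in the first series, was present at 9 of the 10 regions in each direction. The whole ZR_DMSO lists held 11806 and 20051 peaks on chromosomes 1 to 19. The first Citraconate_50K-only region lay on chromosome 11 from 121982345 to 121982540, ranked 40 and 39 with an authors' fold of 147 and 158, and had a peak in both DMSO_50K lists. Others lay inside the cytokine receptor gene Il31ra (chromosome 13, 112578177 to 112578348), near Mrln, Zfp746 and Aasdhppt, inside Kcnip1 and Muc3, within 1 kb of the end of the calcium channel subunit gene Cacna2d2, and, further than 100 kb from any gene end, on chromosomes 14 and 18. Mrln, which encodes a small muscle membrane protein, had a ZR_dmCitra-only peak at its own gene end, at ranks 21807 and 21671.

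The first ZR_dmCitra-only region lay between genes on chromosome 6, from 130812872 to 130813651 with Gm6600 as the nearest gene, ranked 1174 and 1718 with an authors' fold of 51.9 and 44.0, and had a peak in both ZR libraries. The next lay inside Adgrv1, an adhesion receptor gene (chromosome 13, 81401412 to 81402383), with ranks 1836 and 2041 and a peak in all ZR and EV libraries. Others lay near Rgs5, Mbnl2 and Adgrl4, inside Auts2, Abcc4 and Pdzrn3, and, further than 100 kb from any gene end, on chromosomes 2 and 1. Of these 10 regions, 6 also had a peak in both DMSO_50K libraries, so that within the second series they were found in DMSO_50K and not in Citraconate_50K.

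Several genes collected many called regions of a single direction, a region being assigned to the gene around it or to the nearest gene end within 100 kb. Over all regions 6.54% were Citraconate_50K-only and 11.3% ZR_dmCitra-only. Auts2, a neurodevelopmental gene, had 12 ZR_dmCitra-only regions and 1 Citraconate_50K-only among 24, and ZR replicates 1 and 2 had a peak at 11 of the 12 each, EV at 2 and DMSO_50K at 3. Its own gene-end peak was in all 4 lists, at ranks 24421 and 15839 in Citraconate_50K and 6011 and 3183 in ZR_dmCitra. Pde4d, a cAMP phosphodiesterase gene, had 10 ZR_dmCitra-only regions and no Citraconate_50K-only one among 49, Gpc5, a glypican gene, 9 and none among 16, and Palld, an actin-binding protein gene, 9 and none among 13. Gpc5 was also ZR_dmCitra-only at its gene end, at ranks 3984 and 4301, while DMSO_50K, ZR and EV libraries all had a gene-end peak of it. Tenm4, a teneurin gene, had 10 ZR_dmCitra-only regions and 1 Citraconate_50K-only among 31, yet its gene-end peak was Citraconate_50K-only, at ranks 17944 and 14626.

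On the Citraconate_50K side the densest genes were Gm21119 with 25 of 83 regions, Gas8 with 14 of 34 and Gm40469 with 12 of 27, all on chromosome 8. Septin9 on chromosome 11 had 10 of 19 and Gm9758 on chromosome 5 had 9 of 23. None of these 5 had a ZR_dmCitra-only region. Gas8 encodes a ciliary axoneme protein and Septin9 a cytoskeletal GTPase, while the Gm genes are predicted genes. All 14 Gas8 regions lay outside that gene, from position 123537935 to 123587831. They were assigned to it by its nearest end, at 123536657. The 25 regions at Gm21119 ran from position 20616628 to 20711905, and DMSO_50K libraries had a peak at none of them, ZR libraries at 2 and 3 and EV libraries at 5 and 2. At Septin9, DMSO_50K libraries had a peak at 5 and 6 of the 10 regions. The treatment of reads from repeated sequence is not stated.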

How the data were processed

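ATAC-seq was done on 50000 cells per library, sequenced as paired 50 nt reads, per the labels' protocols. The submitters' processing notes name mm10 as genome build and BWA, SAMtools and Picard as tools, with no versions. Peaks were called by MACS2 on each library, per the peak names in the files; its settings, and any read shifting or duplicate removal, are not given in the sources used. For every peak the deposited files give a score (10 times the −log10 q), the fold enrichment as a ratio, and the −log10 of its p-value and of its q-value. These are the authors' values and served to rank, filter and describe peaks inside their own list. Without read counts, depth is unknown and intervals for counting error could not be made.

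Groups came from the titles. Peaks on chromosomes 1 to 19 were kept, cut to the shortest list (28580) by −log10 q, merged over the 4 lists, and a library counted at an overlap of at least 1 bp. Genes came from RefSeq (GRCm38.p6); a gene-end peak lay within 1 kb of either end, and a region was assigned to the gene with the nearest end within 100 kb or the gene around it. Of the gene list entries 11 had no protein-coding match on these chromosomes. Values with 1 figure per library went through a two-sided exact permutation test (SciPy 1.17.1, pandas 2.3.3, Python 3.11.15). The calling code was tested on simulated lists.

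Named were up to 4 genes per list and direction by the poorer rank, the best 10 regions per direction absent from the other group's deposited lists, the 5 genes with most called regions, and Acod1, Rela, Ezh2, Ccnd1, L1cam, Sox2 and Nes. The libraries, gene lists and naming rule were chosen with earlier results of these data known. Alternatives were other list lengths, thresholds, rankings, overlaps, widths, windows and chromosomes, pairs of same-numbered replicates, and the omission of single libraries.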

Additional observations from a re-analysis of the deposited data

Results flagged for a closer look

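Chromosome Y lay outside the chromosomes compared, and its share of the peaks was higher in both Citraconate_50K libraries than in any ZR_dmCitra, DMSO_50K, ZR or EV library. With the lists at 29432 peaks on chromosomes 1 to 19, X and Y, it held 0.846% and 0.690% of peaks in Citraconate_50K, against 0.139% and 0.167% in ZR_dmCitra (exact permutation p = 0.33, the smallest possible). Before that reduction, the deposited lists held 271 and 203 chromosome Y peaks of 31864 and 29574 in Citraconate_50K, against 197 and 172 of 45920 and 44196 in ZR_dmCitra, a smaller gap. DMSO_50K libraries had 0.0170% each, ZR 0.0883% and 0.0849%, and EV 0.119% and 0.139%. ZR_DMSO and ZR_GSK343 libraries, fusion cells with vehicle or the EZH2 inhibitor GSK343, had 1.30% to 2.29%, some of them from shorter lists.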

How the results depend on the processing

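With 2 libraries a group no single value can pass 0.05, and lists of equal length still differed in the strength of their last peaks. As deposited, the lists gave 1152 Citraconate_50K-only and 10084 ZR_dmCitra-only regions, with 16.9% and 4.91% at gene ends, and 135 and 336 genes. With the 12000 best peaks, 1868 regions were Citraconate_50K-only and 2071 ZR_dmCitra-only, much closer to each other than the 2790 and 4825 of the main setting. Of these, 58.8% of Citraconate_50K-only and 7.58% of ZR_dmCitra-only regions lay at gene ends. At this length 1240 genes were Citraconate_50K-only and 158 ZR_dmCitra-only. The gene-end share of Citraconate_50K-only regions was 28.0% at a −log10 q of at least 5, 29.5% with 50% of the region covered, and, in alternatives chosen after seeing the data, 28.8% with peaks of at least 200 bp and 19.9% without chromosomes 4, 9 and 11, where 375 genes were Citraconate_50K-only. That of ZR_dmCitra-only regions was 6.08% with 50% covered and 4.71% with 500 bp around summits. Leaving out 1 library gave 3562 to 8051 Citraconate_50K-only regions (6920 and 8051 without Citraconate_50K replicates 1 and 2), 6419 to 7227 ZR_dmCitra-only regions, 15.4% to 26.5% and 4.10% to 5.05% at gene ends, 750 to 910 Citraconate_50K-only genes (866 without Citraconate_50K replicate 1, 910 without ZR_dmCitra replicate 2) and 229 to 274 ZR_dmCitra-only genes. Counts grow there because a call then asks for a peak in fewer lists.

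The width difference of -142 bp turned to 15.0 bp as deposited and 69.0 bp at a −log10 q of at least 5. The fusion-lost difference turned to -0.801 and -1.46 points in these settings, and the difference at shared regions to 9.27 points with the 12000 best peaks. As deposited, the balance of Citraconate_50K-only minus ZR_dmCitra-only regions turned to -7.24 points on chromosome 9 and -4.77 on chromosome 11. The causes were not tested. The fusion-gained difference kept its sign throughout, from -43.7 to -13.1 points. Ranking by fold gave the same lists. Of 27 named genes with a gene-end call, none changed direction, and 3 (Cxcl1, Gpc5 and Nrxn3) were called under every alternative run. Ranking by fold, the replicate block and the omission of single libraries could hardly change a call. Under the replicate block, that is calls in both same-numbered pairs, the counts were 2790 and 4825 regions and 572 and 143 genes, the same by construction, and the fusion-gained difference of -26.8 points had an exact sign-flip p of 0.5, the smallest possible. Same-numbered libraries did not deviate together (r = 0.0112 over 16568 regions, across regions).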

Other observations

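Chromosome X held 2.14% and 2.21% of the peaks in Citraconate_50K and 2.90% and 2.78% in ZR_dmCitra at 29432 peaks, with 2.95% and 2.88% in ZR, 2.33% and 2.47% in EV and 2.47% and 2.43% in DMSO_50K. The Citraconate_50K libraries were the lowest of these 10.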
